A study of Sus scrofa with 12 samples.

Results

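Liver RNA of Hezuo pigs was set against that of Bama pigs, both kept at room temperature. Hezuo pigs are a small breed of the cold Gansu highlands, Bama pigs a miniature breed of warm southern China, and the study was made to compare their livers with and without cold. Each room temperature group held 3 pigs housed at 23 ± 2 °C and given balanced feed, with liver taken on day 15. Another 3 pigs of each breed were kept at -15 ± 2 °C and also sampled on day 15. They carry the same pig numbers in the labels and were taken as separate animals. They served here only to estimate the spread and to see whether a breed difference was there in the cold too. Neither sex nor age of the pigs is given in the labels. The comparison covers all autosomal features of the deposited tables: 17106 of 21169 gene rows and 23592 of 24177 circular RNAs (circRNAs), in 6 of the 12 libraries. Enough reads for a test were found for 12710 of these genes and 8833 of these circRNAs, while 4396 gene rows and 14759 circRNAs were too low.

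The liver takes up the amino acids of the meal, burns or rebuilds their carbon skeletons and turns their nitrogen into urea. It makes most of the insulin-like growth factor 1 (IGF1) of the blood when growth hormone binds its receptor on hepatocytes, and it stores glycogen, fat, iron and zinc. Resident macrophages, T cells and natural killer (NK) cells sit between the hepatocytes, so RNA of whole liver mixes all of them. A circRNA is a closed loop made when the end of a later exon is spliced back to the start of an earlier one, and it is counted through reads that cross this back-splice junction.

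The room temperature libraries held 22688202 to 26514977 gene counts in Hezuo pigs and 27527543 to 30188037 in Bama pigs, with 44881 to 49476 and 53075 to 73771 autosomal back-splice reads. Albumin RNA, which marks hepatocytes, made up 9.42% to 12% of gene counts in Hezuo libraries and 8.24% to 8.67% in Bama libraries. Y-linked RNA split the 2 groups completely. DDX3Y, a Y-chromosome helicase gene, had 1605, 1331 and 1844 counts in the Hezuo libraries, against 2, 3 and 0 counts in the Bama libraries, so breed and Y-linked RNA cannot be told apart at room temperature. In the cold, DDX3Y had 1656 to 2407 counts in Hezuo libraries, and Bama replicates 1, 2 and 3 had 2284, 0 and 3769. Bama replicate 2 also stood apart from the other 2 Bama libraries at room temperature. On the first principal component of all genes it lay at 23.9, against 44.0 and 49.8 for Bama replicates 1 and 3 and -33.3 to -12.9 for the Hezuo libraries. Among Hezuo libraries, replicate 2 held the most neutrophil marker RNA, with a summed level of 162 CPM (counts scaled to library size) against 51.0 and 69.1 CPM in replicates 1 and 3.

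A gene was called when its Benjamini-Hochberg adjusted p, from edgeR's quasi-likelihood test over all genes, was below 0.05. Of the 12710 autosomal genes tested, 127 were called (0.999%), 78 higher (0.614%) and 49 lower (0.386%) in Hezuo livers. The higher genes had a median log2 fold change of 1.05 and the lower genes one of -1.59, and the median of all autosomal genes was -0.0019. All 127 had no overlap between the 3 Hezuo and the 3 Bama libraries, as did 23.7% of all genes tested. Statements below that the groups of a called gene do not overlap describe its values and add nothing to its call. At an unadjusted p below 0.05 there were 2507 genes, and DESeq2, a second count test, called 952 (7.49%), 495 higher (3.89%) and 457 lower (3.6%). The number of calls depended on single libraries: it was 6, 78 and 8 without Hezuo replicate 1, 2 or 3, and 9, 550 and 16 without Bama replicate 1, 2 or 3. All 127, which were chosen from these same libraries, kept their direction in each of these 6 fits. AADAT, ARVCF, ESR1, GTF2H5, IGF1 and PRKCZ were the 6 called in all of these fits. The genes just inside the threshold were PSMB6, GNMT and DCXR (edgeR adjusted p = 0.0492 for each), and TFDP2, ATF7IP2 and GGTA1P lay just outside it (0.050045 for each).

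The 6 genes called whichever library was left out were led by AADAT, which encodes a mitochondrial aminotransferase of lysine and tryptophan breakdown. AADAT RNA (ENSSSCG00000009708, chromosome 14) stood at 44.2, 28.8 and 73.5 CPM in Hezuo livers, against 0.0314, 0.0371 and 0.126 CPM in Bama livers. The Bama values rest on 1, 1 and 4 counts, so AADAT was close to undetected in Bama livers and plainly expressed in every Hezuo liver (log2 fold change 9.42 ± 0.60 SE, edgeR adjusted p = 8.11e-05). In the cold the same split was seen, with 153, 135 and 71.3 CPM in Hezuo livers, against 0.125, 0.108 and 0.0328 CPM in Bama livers. ESR1 (ENSSSCG00000025777, chromosome 1), the estrogen receptor alpha gene, was at 26.5, 24.1 and 39.4 CPM in Hezuo livers, against 6.66, 7.83 and 5.99 CPM in Bama livers (log2 fold change 2.14 ± 0.21 SE, edgeR adjusted p = 0.00139). ARVCF (ENSSSCG00000010133, chromosome 14), which encodes a catenin of cell junctions, was at 65.3, 47.3 and 71.3 CPM in Hezuo livers, against 15.1, 23.6 and 18.8 CPM in Bama livers (log2 fold change 1.68 ± 0.18 SE, edgeR adjusted p = 0.00293). PRKCZ (ENSSSCG00000030361, chromosome 6), an atypical protein kinase C gene, was at 44.05, 37.6 and 48.2 CPM in Hezuo livers, against 20.2, 22.5 and 22.1 CPM in Bama livers (log2 fold change 1.003 ± 0.12 SE, edgeR adjusted p = 0.00435). In each of these genes the lowest Hezuo liver lay well above the highest Bama liver. GTF2H5 (ENSSSCG00000024019, chromosome 1), which encodes the smallest subunit of the repair and transcription factor TFIIH, went the other way, at 1.98, 1.13 and 1.48 CPM in Hezuo livers, against 6.29, 5.42 and 6.31 CPM in Bama livers (log2 fold change -1.96 ± 0.22 SE, edgeR adjusted p = 0.00316).

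**Figure D1:**
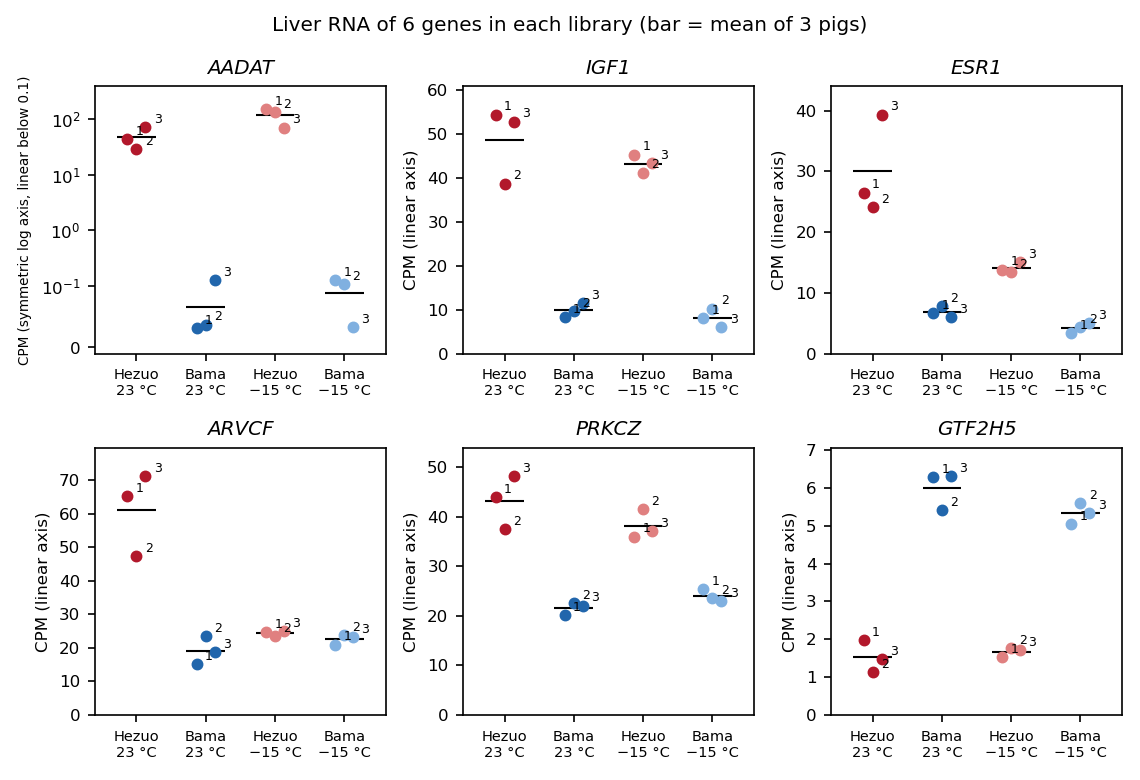
Level of 6 genes in CPM in each of the 12 libraries, with Hezuo and Bama pigs at 23 °C and then at −15 °C; points are pigs, numbered by replicate, and bars are means of 3 pigs (AADAT on a symmetric log axis, the others linear from 0). Hezuo livers lie above Bama livers at 23 °C for AADAT (28.8 CPM or more against 0.126 CPM or less) and for IGF1, ESR1, ARVCF and PRKCZ, and below them for GTF2H5, and the ARVCF groups lie close together at −15 °C (23.5 to 25.1 against 21.0 to 24.0 CPM).

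The growth hormone and IGF axis was higher in Hezuo livers at 3 of its 22 tested genes, against 0.614% of all genes, and lower at none. The 3 were the hormone IGF1, its carrier IGFALS and the receptor GHR. IGF1 (ENSSSCG00000000857, chromosome 5) was at 54.3, 38.6 and 52.7 CPM in Hezuo livers, against 8.27, 9.72 and 11.5 CPM in Bama livers. Its mean was 48.6 ± 8.63 CPM in Hezuo livers and 9.83 ± 1.63 CPM in Bama livers (SD, n = 3 each), a 4.94-fold difference (log2 fold change 2.30 ± 0.20 SE, edgeR adjusted p = 0.000693). Every Hezuo liver held more IGF1 RNA than any Bama liver, and the difference stayed called with edgeR in the cold, where the log2 fold change was 2.42 (adjusted p = 0.000359). IGFALS, the acid-labile subunit that holds IGF1 in the blood, was at 155, 138 and 184 CPM in Hezuo livers, against 65.7, 77.9 and 51.8 CPM in Bama livers (log2 fold change 1.29 ± 0.21 SE, edgeR adjusted p = 0.0265). GHR, the growth hormone receptor, was at 237, 203 and 413 CPM in Hezuo livers, against 104, 144 and 130.0 CPM in Bama livers (log2 fold change 1.17 ± 0.24 SE, edgeR adjusted p = 0.0457). The binding protein gene IGFBP2 missed the threshold on the other side, at 134, 134 and 196 CPM in Hezuo livers, against 299, 273 and 382 CPM in Bama livers (log2 fold change -1.04 ± 0.23 SE, edgeR adjusted p = 0.0525). The median log2 fold change over the 22 genes was 0.20, with 14 above 0, against -0.0019 over all genes. GHR and IGFALS lost their calls without Hezuo replicate 1 or 3 or Bama replicate 1 or 3 (edgeR adjusted p from 0.0986 to 0.172). With presence of Y-linked RNA as a covariate, which rests on Bama cold replicate 2 against the other 2 cold Bama pigs, IGF1 was still called (log2 fold change 2.85, edgeR adjusted p = 0.00855).

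Genes of amino acid breakdown lay mostly higher in Hezuo livers. AADAT, TDO2 and FAH were called among 39 tested (against 0.614% of all genes called higher), none was called lower, and 24 had an unadjusted p below 0.05, all of them higher (against 10% of all genes). The median log2 fold change of the list was 0.62 with 37 of 39 genes above 0, beside -0.0019 for all genes. TDO2, the first enzyme of tryptophan breakdown in liver, was at 625, 411 and 705 CPM in Hezuo livers, against 253, 308 and 289 CPM in Bama livers (log2 fold change 1.03 ± 0.19 SE, edgeR adjusted p = 0.0376). FAH, the last enzyme of tyrosine breakdown, was at 532, 454 and 484 CPM in Hezuo livers, against 224, 334 and 214 CPM in Bama livers (log2 fold change 0.93 ± 0.19 SE, edgeR adjusted p = 0.0467). Each of these Hezuo ranges cleared the Bama range, with Hezuo replicate 2 the lowest Hezuo pig in both. HGD, an earlier step of tyrosine breakdown, was at 245, 147 and 209 CPM in Hezuo livers, against 30.4, 91.6 and 28.6 CPM in Bama livers and just missed the threshold (log2 fold change 1.999 ± 0.43 SE, edgeR adjusted p = 0.0521). Outside the list, MCCC2 of leucine breakdown was at 132 to 176 CPM in Hezuo livers, against 58.9 to 92.4 CPM in Bama livers (log2 fold change 1.07 ± 0.21 SE, edgeR adjusted p = 0.0429). AGMAT, which encodes agmatinase, was at 263 to 325 CPM in Hezuo livers, against 111 to 138 CPM in Bama livers (log2 fold change 1.20 ± 0.18 SE, edgeR adjusted p = 0.0206). The Bama livers stayed below the Hezuo livers for HGD, MCCC2 and AGMAT alike. GPT, the alanine aminotransferase gene of the gluconeogenesis list and its only called gene of 20, was at 47.8, 30.7 and 45.96 CPM in Hezuo livers, against 20.2, 23.5 and 18.1 CPM in Bama livers (log2 fold change 1.01 ± 0.20 SE, edgeR adjusted p = 0.0455). In the urea cycle list 1 of 14 genes was called, 12 lay above 0 and the median log2 fold change was 0.88. The called gene was CA5A, the mitochondrial carbonic anhydrase that feeds bicarbonate to urea synthesis, at 116, 86.8 and 95.2 CPM in Hezuo livers, against 55.7, 55.00 and 58.5 CPM in Bama livers (log2 fold change 0.82 ± 0.15 SE, edgeR adjusted p = 0.0381). ASS1, argininosuccinate synthase, had the same direction without a call, at 3756, 2530.5 and 2800.1 CPM in Hezuo livers, against 771, 1872 and 785 CPM in Bama livers (log2 fold change 1.41 ± 0.32 SE, edgeR adjusted p = 0.0549).

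These differences in amino acid genes were uneven over the Bama pigs. For HGD, ASS1 and FAH, Bama replicate 2 was the highest Bama liver, and over the 127 called genes it was the Bama library nearest to Hezuo in 71, against 14 for replicate 1 and 42 for replicate 3. Over all autosomal genes tested, Bama replicate 2 was also the nearest most often, in 43.5%, against 27.8% for replicate 1 and 28.6% for replicate 3. Set against Bama replicate 2 alone, a library picked for this and so a description with no test, the median log2 fold change was 0.29 for amino acid breakdown, with 29 of 39 genes above 0, and 0.35 for the urea cycle. Without Bama replicate 2 it was 0.92 and 0.94, with 14 of 39 and 7 of 14 genes called, where 550 of all genes were called. TDO2, FAH, MCCC2, GPT, AGMAT and CA5A all lost their calls without Hezuo replicate 1 or 3 or Bama replicate 1 or 3 (edgeR adjusted p from 0.0702 to 0.177), and 4 of the 6 held without Hezuo replicate 2. Hepatocyte markers lay on the same side. None of their 23 tested gene rows was called, and 21 lay above 0 with a median log2 fold change of 0.33. Their summed level was 211800 to 224940 CPM in Hezuo livers, against 153100 to 173000 CPM in Bama livers. Much of this sum, in both breeds, was albumin RNA, which was not called. The part of hepatocyte RNA in the metabolic differences was not tested.

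One-carbon, methionine and creatine metabolism had 4 called genes of 21, all higher in Hezuo livers, against 0.614% of all genes called higher. The median log2 fold change of the list was 0.62. GNMT, which uses up S-adenosylmethionine by methylating glycine to sarcosine, was at 537, 371 and 343 CPM in Hezuo livers, against 64.5, 199 and 65.4 CPM in Bama livers (log2 fold change 1.93 ± 0.40 SE, edgeR adjusted p = 0.0492). Enzymes that make sarcosine by another route or use it up were higher as well. SARDH, sarcosine dehydrogenase, was at 373, 293 and 319.8 CPM in Hezuo livers, against 118, 174 and 136 CPM in Bama livers (log2 fold change 1.20 ± 0.19 SE, edgeR adjusted p = 0.0265). DMGDH, which makes sarcosine from dimethylglycine, was at 587, 689.6 and 863 CPM in Hezuo livers, against 266, 323 and 348 CPM in Bama livers (log2 fold change 1.19 ± 0.24 SE, edgeR adjusted p = 0.0429). GAMT, which methylates guanidinoacetate to creatine, was at 508, 426 and 434 CPM in Hezuo livers, against 233, 286 and 240.1 CPM in Bama livers (log2 fold change 0.85 ± 0.14 SE, edgeR adjusted p = 0.0265). No Bama liver reached the lowest Hezuo liver for any of the 4, although Bama replicate 2 came closest for GNMT, SARDH and GAMT. GATM, the enzyme one step before GAMT, stood on the other side without a call, at 657, 712 and 651 CPM in Hezuo livers, against 1164, 1689 and 999.8 CPM in Bama livers (log2 fold change -0.93 ± 0.35 SE, edgeR adjusted p = 0.173). All 4 calls were lost without Hezuo replicate 1 or 3 or Bama replicate 1 or 3 (edgeR adjusted p from 0.0942 to 0.167). Those of GNMT and DMGDH were also lost without Hezuo replicate 2.

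Genes of fuel storage and use were called singly rather than as groups. Over all autosomal genes tested 0.614% were called higher and 0.386% lower, so 1 call on a list says little about that list. PGM1, phosphoglucomutase of glycogen metabolism and the only called gene of 12 on its list, was at 292, 253 and 263 CPM in Hezuo livers, against 151, 183 and 163 CPM in Bama livers (log2 fold change 0.70 ± 0.13 SE, edgeR adjusted p = 0.0331). MGAM, which encodes the starch-digesting enzyme maltase-glucoamylase, was at 996, 809.9 and 939.5 CPM in Hezuo livers, against 321, 433 and 327 CPM in Bama livers (log2 fold change 1.34 ± 0.23 SE, edgeR adjusted p = 0.0326). SDHB, an iron-sulfur subunit of respiratory complex II, was the only called gene of 67 on the nuclear respiratory chain list, at 116, 132 and 142 CPM in Hezuo livers, against 73.1, 92.9 and 68.96 CPM in Bama livers (log2 fold change 0.73 ± 0.14 SE, edgeR adjusted p = 0.0384). Each was higher in all 3 Hezuo livers than in any Bama liver. PLIN4, a lipid droplet coat gene, was the only called gene of 20 for triglyceride synthesis and lipid droplets, at 38.5, 34.4 and 33.4 CPM in Hezuo livers, against 6.88, 11.3 and 13.6 CPM in Bama livers (log2 fold change 1.74 ± 0.32 SE, edgeR adjusted p = 0.0375). SLC2A4, the insulin-regulated glucose transporter GLUT4 known mainly from muscle and fat, was low in all livers, at 9.58, 5.67 and 12.1 CPM in Hezuo livers, against 1.26, 3.04 and 2.84 CPM in Bama livers (log2 fold change 1.94 ± 0.41 SE, edgeR adjusted p = 0.0467). APOM, an apolipoprotein of high-density lipoprotein, was the only called gene of 24 in its list and was lower in Hezuo livers, at 30.7, 21.95 and 24.3 CPM in Hezuo livers, against 58.2, 37.02 and 52.7 CPM in Bama livers (log2 fold change -0.94 ± 0.20 SE, edgeR adjusted p = 0.0467). PLIN4 and SLC2A4 were thus higher and APOM lower in every Hezuo liver. ETNK2, ethanolamine kinase of phospholipid synthesis, was at 538, 341 and 433 CPM in Hezuo livers, against 165, 260.4 and 246 CPM in Bama livers (log2 fold change 0.97 ± 0.20 SE, edgeR adjusted p = 0.0455). TEF, a clock-driven transcription factor gene, was the 1 called gene of 22 on the circadian list, at 97.3, 80.4 and 102 CPM in Hezuo livers, against 35.1, 44.5 and 46.6 CPM in Bama livers (log2 fold change 1.15 ± 0.24 SE, edgeR adjusted p = 0.0464). Those lists had median log2 fold changes of 0.28 for glycogen, 0.13 for the respiratory chain, -0.027 for triglycerides and droplets, 0.15 for apolipoproteins and 0.45 for the clock. Without Hezuo replicate 1 or 3 or Bama replicate 1 or 3, none of these 8 genes was called (edgeR adjusted p from 0.0834 to 0.172). Only ETNK2, MGAM and SLC2A4 of them stayed called without Hezuo replicate 2.

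Metal handling differed at a few genes that went opposite ways. MT1A, a metallothionein that binds zinc and copper, was at 4845, 4755 and 4005 CPM in Hezuo livers, against 1991, 1926 and 2072 CPM in Bama livers (log2 fold change 1.18 ± 0.20 SE, edgeR adjusted p = 0.0311). TFRC, the transferrin receptor through which cells take up iron, was at 274, 343 and 235 CPM in Hezuo livers, against 724, 875 and 974 CPM in Bama livers (log2 fold change -1.59 ± 0.26 SE, edgeR adjusted p = 0.0265), so the highest Hezuo liver held less than the lowest Bama liver. ALAD, the second enzyme of heme synthesis, was at 183, 144 and 164 CPM in Hezuo livers, against 87.3, 94.6 and 97.2 CPM in Bama livers (log2 fold change 0.81 ± 0.14 SE, edgeR adjusted p = 0.0320). FDX1, an iron-sulfur protein of steroid synthesis in mitochondria, was at 72.3, 73.4 and 86.9 CPM in Hezuo livers, against 37.1, 38.3 and 43.7 CPM in Bama livers (log2 fold change 0.97 ± 0.17 SE, edgeR adjusted p = 0.0320). MT1A was the only called gene of 13 on the metal handling list, and TFRC the only one of 20 on the iron list. Over all genes 0.614% were called higher and 0.386% lower. HAMP, which encodes the iron hormone hepcidin, was low and scattered, at 7.12, 0.998 and 2.44 CPM in Hezuo livers, against 0.0629, 1.67 and 0.379 CPM in Bama livers (log2 fold change 2.37 ± 1.60 SE, edgeR adjusted p = 0.448). Metallothionein genes are near-identical copies, and how shared reads were counted is not given in the sources used here, so the MT1A value may hold reads of other copies. Erythroid markers had no call among 9 tested genes and a median log2 fold change of 1.66. They had a summed level of 4469, 14846 and 8271 CPM in Hezuo livers, against 1895, 1399 and 5316 CPM in Bama livers. The part of erythroid RNA in the iron and heme genes was not tested. MT1A, TFRC, ALAD and FDX1 were not called without Hezuo replicate 1 or 3 or Bama replicate 1 or 3 (edgeR adjusted p from 0.0657 to 0.135). MT1A also lost its call without Hezuo replicate 2 (edgeR adjusted p = 0.0517).

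Markers of T and NK cells lay mostly lower in Hezuo livers. Of 24 tested gene rows 2 were called, both lower (against 0.386% of all genes), 21 were lower at an unadjusted p below 0.05 (against 9.68%), and the median log2 fold change was -1.28. CD8A, the coreceptor of cytotoxic T cells, was at 7.51, 8.35 and 6.22 CPM in Hezuo livers, against 43.8, 15.9 and 57.9 CPM in Bama livers (log2 fold change -2.41 ± 0.39 SE, edgeR adjusted p = 0.0311). THEMIS, a T-cell signalling gene, was at 1.04, 0.953 and 0.813 CPM in Hezuo livers, against 5.66, 2.56 and 5.33 CPM in Bama livers (log2 fold change -2.27 ± 0.33 SE, edgeR adjusted p = 0.0180). In both genes Bama replicate 2 lay nearest the Hezuo pigs and Bama replicates 1 and 3 were the highest. Outside the list, BCL11B, the T-lineage transcription factor gene, was at 0.574 to 1.09 CPM in Hezuo livers, against 1.93 to 4.70 CPM in Bama livers (log2 fold change -2.18 ± 0.42 SE, edgeR adjusted p = 0.0416). CD27, a costimulatory receptor of lymphocytes, was at 2.16 to 2.58 CPM in Hezuo livers, against 3.49 to 8.61 CPM in Bama livers (log2 fold change -1.45 ± 0.30 SE, edgeR adjusted p = 0.0455). CD38, a surface enzyme of activated lymphocytes, was at 7.38, 12.02 and 8.27 CPM in Hezuo livers, against 35.4, 17.7 and 37.3 CPM in Bama livers (log2 fold change -1.71 ± 0.31 SE, edgeR adjusted p = 0.0331). For BCL11B, CD27 and CD38 no Hezuo liver reached the Bama range. NLRC3, an inhibitory immune sensor gene, was at 3.97 to 6.26 CPM in Hezuo livers, against 8.42 to 17.6 CPM in Bama livers (log2 fold change -1.31 ± 0.28 SE, edgeR adjusted p = 0.0467). IDO1, the interferon-induced enzyme that breaks down tryptophan outside the hepatocyte pathway, was at 0.0863, 0.136 and 0.526 CPM in Hezuo livers, against 2.58, 1.67 and 5.30 CPM in Bama livers (log2 fold change -3.67 ± 0.75 SE, edgeR adjusted p = 0.0455). All of these groups were free of overlap. In whole liver, fewer lymphocytes and less RNA per lymphocyte cannot be told apart.

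The summed level of the T and NK markers was 221, 267 and 205 CPM in Hezuo livers, against 522, 277 and 595 CPM in Bama livers, so Hezuo replicate 2 and Bama replicate 2 lay next to each other. Against Bama replicate 2 alone, 1 library picked because it lay nearest to the Hezuo pigs, the median log2 fold change of the list was -0.30, with 16 of 24 gene rows below 0, which is a description with no test. Without Bama replicate 2 it was -1.60, with 16 called lower and 1 called higher, where 321 of all genes were called lower and 229 higher. The calls of CD8A, THEMIS, BCL11B, CD27, CD38, NLRC3 and IDO1 ended without Hezuo replicate 1 or 3 or Bama replicate 1 or 3 (edgeR adjusted p from 0.0594 to 0.164). Only BCL11B, CD38 and THEMIS of these 7 stayed called without Hezuo replicate 2. The highest T and NK marker levels were those of Bama replicates 1 and 3.

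Interferon-response genes had the same direction without a call by edgeR. None of 38 was called. At an unadjusted p below 0.05, 23 were lower, against 9.68% of all genes, and none was higher. DESeq2 called 9 lower, against 3.6% of all genes, 36 lay below 0 and the median log2 fold change was -0.78. CXCL9, an interferon-gamma-induced chemokine that draws T cells, was at 17.3, 40.5 and 17.9 CPM in Hezuo livers, against 134, 45.99 and 175 CPM in Bama livers (log2 fold change -2.23 ± 0.59 SE, edgeR adjusted p = 0.0859). Bama replicates 1 and 3 were again the high livers. Antigen processing and presentation had no edgeR call among 25 genes, 16 lower and 1 higher at an unadjusted p below 0.05, 8 lower and 1 higher by DESeq2, and a median log2 fold change of -0.76. Genes of the porcine major histocompatibility complex have many close copies, so their counts are uncertain. Kupffer cell and macrophage markers had no call among 20 genes and a median log2 fold change of -0.33, and B and plasma cell markers none among 14 with a median of -0.22. Neutrophil markers had a median of 2.21. None of 11 genes was called, and 5 were higher at an unadjusted p below 0.05, against 10% of all genes. Their summed level was 51.0, 162 and 69.1 CPM in Hezuo livers, against 65.3, 49.1 and 49.0 CPM in Bama livers, with Hezuo replicate 2 far above the other 5 pigs.

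**Figure D2:**
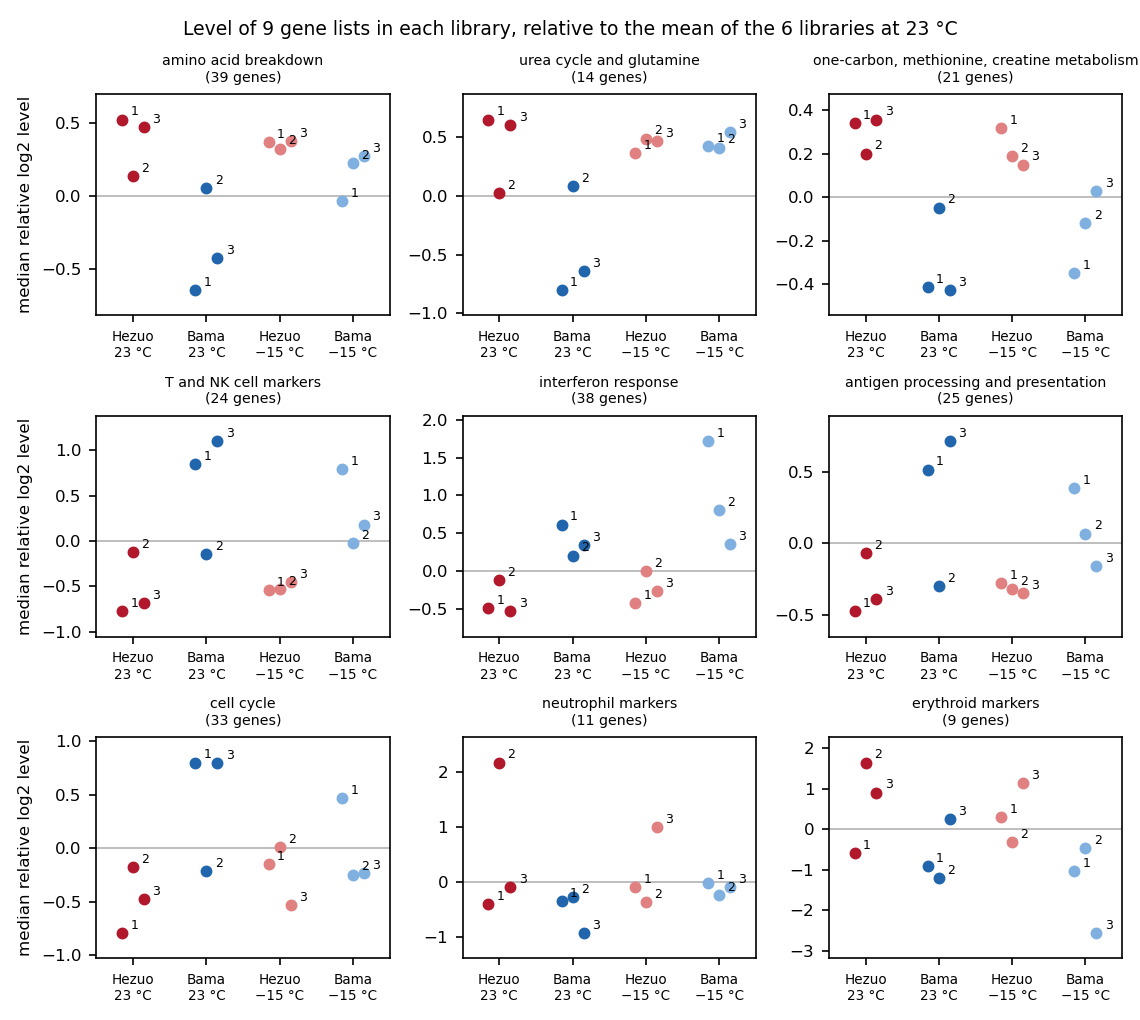
Median level over the genes of 9 lists in each library, as log2(CPM + 0.5) relative to each gene's mean over the 6 libraries at 23 °C; points are pigs, numbered by replicate, with Hezuo left of Bama at 23 °C and then at −15 °C. At 23 °C Bama replicate 2 lies away from Bama replicates 1 and 3 for T and NK cell markers (-0.14 against 0.85 and 1.10), cell cycle genes (-0.21 against 0.80 and 0.80) and amino acid breakdown (0.054 against -0.65 and -0.43), and Hezuo replicate 2 stands out for neutrophil markers (2.17).

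Cell cycle genes lay mostly lower in Hezuo livers, without a call on the list. None of 33 gene rows was called by edgeR. At an unadjusted p below 0.05, 23 were lower, against 9.68% of all genes, DESeq2 called 14 lower, against 3.6% of all genes, and the median log2 fold change was -1.16. MKI67, the proliferation marker Ki-67, was at 13.3, 33.9 and 19.3 CPM in Hezuo livers, against 89.03, 29.6 and 96.4 CPM in Bama livers (log2 fold change -1.69 ± 0.51 SE, edgeR adjusted p = 0.114). The MKI67 groups overlapped, since Hezuo replicate 2 exceeded Bama replicate 2. Outside the list, edgeR called 2 genes of dividing cells lower. KIF20A, a kinesin of cell division, was at 1.86, 1.77 and 2.10 CPM in Hezuo livers, against 7.54, 3.93 and 9.15 CPM in Bama livers (log2 fold change -1.85 ± 0.39 SE, edgeR adjusted p = 0.0467). SHCBP1, a signalling gene of dividing cells, was at 0.345, 0.907 and 0.813 CPM in Hezuo livers, against 3.93, 2.08 and 3.94 CPM in Bama livers (log2 fold change -2.27 ± 0.46 SE, edgeR adjusted p = 0.0455). Both calls were held without Bama replicate 2 and lost without any other library (edgeR adjusted p from 0.0619 to 0.164). Without Bama replicate 2 the list's median was -1.47 with 16 genes called lower, where 321 of all genes were called lower. Against Bama replicate 2 alone, the library picked for lying nearest to the Hezuo pigs, the median was -0.39.

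Several of the largest fold changes belonged to genes that were low in the livers of 1 breed. PPP1R1B, which encodes the phosphatase inhibitor DARPP-32, was at 11.9, 10.1 and 7.56 CPM in Hezuo livers, against 0.314, 0.185 and 0.410 CPM in Bama livers (log2 fold change 4.98 ± 0.65 SE, edgeR adjusted p = 0.0115). MUC13, a membrane mucin gene, was at 16.3, 13.2 and 24.7 CPM in Hezuo livers, against 0.849, 3.15 and 1.61 CPM in Bama livers (log2 fold change 3.28 ± 0.56 SE, edgeR adjusted p = 0.0331). SCN9A, a voltage-gated sodium channel gene, was at 0.949, 5.53 and 1.63 CPM in Hezuo livers, against 0.0629, 0 and 0.0631 CPM in Bama livers (log2 fold change 5.80 ± 1.02 SE, edgeR adjusted p = 0.0331), with 2, 0 and 2 counts in Bama libraries. Hezuo replicate 2 alone set much of the SCN9A mean. PRIMA1, the membrane anchor of acetylcholinesterase, was at 12.7, 24.3 and 14.8 CPM in Hezuo livers, against 2.33, 3.52 and 3.12 CPM in Bama livers (log2 fold change 2.53 ± 0.42 SE, edgeR adjusted p = 0.0311). It too was highest in Hezuo replicate 2. ABCA13, a lipid transporter gene, was at 2.07 to 3.13 CPM in Hezuo livers, against 0.251 to 0.631 CPM in Bama livers (log2 fold change 2.46 ± 0.44 SE, edgeR adjusted p = 0.0331). BPIFC, of the lipid-binding BPI fold family, was at 1.77 to 3.08 CPM in Hezuo livers, against 0.185 to 0.820 CPM in Bama livers (log2 fold change 2.56 ± 0.52 SE, edgeR adjusted p = 0.0455). PLXNB2, a semaphorin receptor gene and one of the most abundant called genes, was at 652, 512 and 589 CPM in Hezuo livers, against 307, 375 and 359.6 CPM in Bama livers (log2 fold change 0.75 ± 0.16 SE, edgeR adjusted p = 0.0457). The first 6 of these genes were low in Bama livers, with no value above 3.52 CPM.

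Among the genes lower in Hezuo livers, CYP2C42 of the drug-metabolising cytochromes P450 was at 0.173, 0.363 and 0.239 CPM in Hezuo livers, against 25.2, 43.7 and 24.2 CPM in Bama livers (log2 fold change -6.89 ± 1.11 SE, edgeR adjusted p = 0.0311). The 3 Bama livers were high together at room temperature, but not in the cold, where CYP2C42 was at 0.333, 2.24 and 1.88 CPM in Hezuo livers, against 1.46, 0.287 and 6.95 CPM in Bama livers. It was the only called gene of 23 on its list, beside 0.386% of all genes called lower. The list had a median log2 fold change of 0.38 with 19 genes above 0. Porcine CYP2C genes are close copies of each other, and the split of reads between them is uncertain. CD209, the pathogen receptor DC-SIGN, was at 0.173, 0.0454 and 0.239 CPM in Hezuo livers, against 0.534, 27.9 and 48.4 CPM in Bama livers (log2 fold change -7.36 ± 1.40 SE, edgeR adjusted p = 0.0429). Bama replicate 1 was near the Hezuo level, and Bama replicates 2 and 3 were far above it. PDZK1IP1, a membrane-associated protein gene, was at 1.21, 0.590 and 0.765 CPM in Hezuo livers, against 5.47, 15.7 and 14.8 CPM in Bama livers (log2 fold change -3.80 ± 0.67 SE, edgeR adjusted p = 0.0331). NEGR1, a neuronal adhesion gene, was at 0.0907 to 0.173 CPM in Hezuo livers, against 1.48 to 3.04 CPM in Bama livers (log2 fold change -3.86 ± 0.61 SE, edgeR adjusted p = 0.0265). Neither had a Hezuo liver within the Bama range. PLB1, phospholipase B1, was at 1.77, 2.22 and 1.63 CPM in Hezuo livers, against 5.56, 16.6 and 4.89 CPM in Bama livers (log2 fold change -2.26 ± 0.47 SE, edgeR adjusted p = 0.0481). Of these 5 genes and the 6 low in Bama livers, all were called without Bama replicate 2, and PPP1R1B, CD209, BPIFC, NEGR1 and MUC13 held without at least 1 further library (edgeR adjusted p of the 11 up to 0.167 over the leave-outs).

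Several liver genes of note did not pass the test. ALB, serum albumin, averaged 122710.0 ± 12945 CPM in Hezuo livers and 81739 ± 5891 CPM in Bama livers (SD, n = 3 each; log2 fold change 0.59 ± 0.52 SE, edgeR adjusted p = 0.573). CIRBP, the cold-inducible RNA-binding protein gene, averaged 62.1 ± 2.90 CPM in Hezuo livers and 58.4 ± 18.7 CPM in Bama livers (log2 fold change 0.09 ± 0.21 SE, edgeR adjusted p = 0.852). CPT1A, which brings fatty acids into mitochondria, averaged 145 ± 28.6 CPM in Hezuo livers and 188 ± 94.4 CPM in Bama livers (log2 fold change -0.38 ± 0.37 SE, edgeR adjusted p = 0.615). Their groups overlapped for CIRBP and CPT1A but not for ALB. FGF21, a fasting and cold hormone of the liver, was at 0.0431, 1.18 and 0.0956 CPM in Hezuo livers, against 7.95, 0.927 and 0.158 CPM in Bama livers (log2 fold change -2.77 ± 1.29 SE, edgeR adjusted p = 0.266), with Bama replicate 1 far above the rest. UCP2, a mitochondrial carrier, averaged 26.3 ± 10.01 CPM in Hezuo livers and 36.1 ± 13.8 CPM in Bama livers (log2 fold change -0.46 ± 0.35 SE, edgeR adjusted p = 0.503). The UCP2 groups overlapped, as did those of the next gene. CYP7A1, the rate-limiting enzyme of bile acid synthesis, averaged 34.96 ± 14.8 CPM in Hezuo livers and 32.6 ± 18.9 CPM in Bama livers (log2 fold change 0.10 ± 1.06 SE, edgeR adjusted p = 0.972). CYP2E1, which oxidises ethanol, was at 4886, 5484 and 5091 CPM in Hezuo livers, against 2975, 3000.3 and 3904 CPM in Bama livers (log2 fold change 0.65 ± 0.24 SE, edgeR adjusted p = 0.173). CYP1A2, the caffeine-oxidising P450, was at 1525, 1074 and 1379 CPM in Hezuo livers, against 457, 849 and 794 CPM in Bama livers (log2 fold change 0.92 ± 0.28 SE, edgeR adjusted p = 0.109), and as with CYP2E1 every Hezuo liver lay above every Bama liver. Of 53 lists with a tested autosomal gene, 16 held a called gene, 12 in the higher and 4 in the lower direction. Fatty acid oxidation had no call among 29 genes and a median log2 fold change of 0.21, cholesterol synthesis none among 20 with -0.56, and acute-phase proteins none among 26 with 0.17. Thermogenesis and uncoupling had none among 14 with a median of 0.097.

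The breed difference was measured a second time in the pigs kept at -15 °C, taken as other animals. There edgeR called 354 autosomal genes (2.79%), 232 higher (1.83%) and 122 lower (0.96%) in Hezuo livers. Of the 127 genes called at room temperature 116 (91.3%) had the same sign in the cold, beside 67.3% of all genes tested, and 39 (30.7%) were also called there with the same sign, beside 2.46% of all genes. None was called with the opposite sign. Both comparisons shared the estimate of each gene's spread from all 4 groups, so their calls are not independent. The same holds for the circRNAs below. The median absolute log2 fold change of the 127 was 1.20 at room temperature, from which they were chosen, and 0.72 in the cold. IGF1, AADAT, ESR1, IGFALS, GHR, AGMAT and PDZK1IP1 were among those called at both temperatures. List medians, at room temperature and in the cold, were 0.62 and 0.19 for amino acid breakdown and 0.88 and 0.23 for the urea cycle. They were 0.62 and 0.37 for one-carbon metabolism, -1.16 and -0.19 for the cell cycle, and -1.28 and -0.92 for T and NK markers. Interferon response had -0.78 and -1.31, fatty acid oxidation 0.21 and 0.67, and cholesterol synthesis -0.56 and 0.53, beside -0.0019 and -0.0032 for all genes. A test of the difference between the 2 breed differences called no gene, with 1011 at an unadjusted p below 0.05, 45 of them among the 127, while DESeq2 called 123. The lowest adjusted p, 0.0699, belonged to TDO2 and ARVCF. TDO2 in the cold was at 373, 406 and 449 CPM in Hezuo livers, against 694, 605 and 706 CPM in Bama livers, so Bama livers were the higher ones there. GNMT in the cold was at 368, 399.7 and 558 CPM in Hezuo livers, against 456, 526 and 589.9 CPM in Bama livers, and its groups overlapped. The cold group of Bama pigs had Y-linked RNA in 2 of 3 libraries. Among the 127 genes, the Bama cold library without it lay outside the other 2 on the Hezuo side for 47, outside on the far side for 35 and between them for 45. This split was not counted over all genes, so it shows nothing particular to the 127. When the model also held the presence of Y-linked RNA, it called 3 autosomal genes (0.0236%), IGF1, IL33 and REEP2. Of these 3 only IGF1 was among the 127. All 127 kept their sign in that model, as did 9790 of all 12710 genes tested. An unadjusted edgeR p below 0.05 was found there for 108 of the 127 and for 1139 of all tested. The 127 were chosen from room temperature libraries that this model also holds, so these counts are no separate evidence. Their median SE was 0.377 in place of 0.209.

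**Figure D3:**
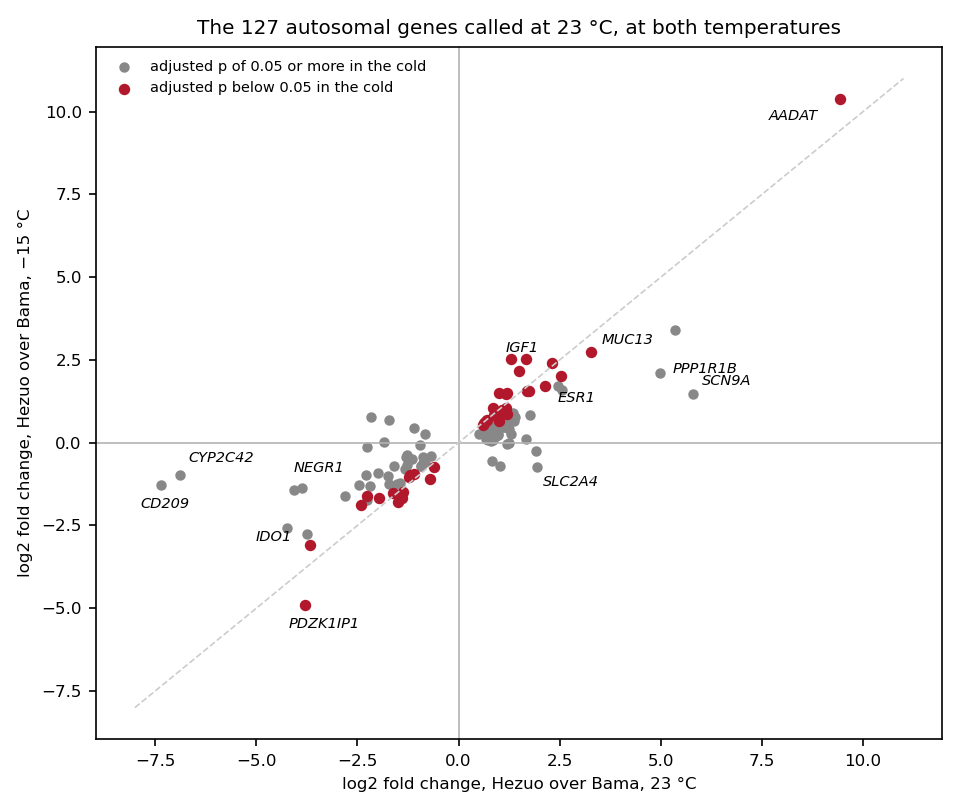
Log2 fold change of Hezuo over Bama livers at −15 °C (vertical) against 23 °C (horizontal) for the 127 autosomal genes called at 23 °C; red points were also called at −15 °C, and the dashed line marks equal values. Of the 127, 116 have the same sign on both axes, AADAT and IGF1 lie near the line, and CYP2C42 and CD209 lie far from it (-0.97 and -1.27 in the cold against -6.89 and -7.36 at 23 °C).

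Circular RNA differed at fewer features. Of 8833 autosomal circRNAs tested 34 were called (0.385%), 18 higher (0.204%) and 16 lower (0.181%) in Hezuo livers. At an unadjusted p below 0.05 there were 691, and DESeq2 called 19 (0.215%). No overlap between breeds was seen for 29 of the 34, against 12.1% of all tested. As for genes, this describes values from which the calls were made and adds nothing to them. By structure, 17 of 7728 circRNAs made of annotated exons were called (0.220%), 10 of 521 that mix exons and introns (1.92%), 3 of 67 antisense to their host (4.48%), 3 of 182 intergenic ones (1.65%), 1 of 278 within a single exon (0.360%) and none of 57 intronic ones. In the cold 31 of the 34 had the same sign, against 54.9% of all, and 12 were called there with it, against 0.385% of all tested circRNAs. Another 1, novel_circ_022008, was called there with the opposite sign, and calls of either sign in the cold made up 0.464% of all tested. Of all tested, 6 (0.0679%) had a breed difference that itself differed between the temperatures. Calls numbered between 20 and 27 when 1 room temperature library was left out, and 11 of the 34 were called in all 6 of these fits. Back-splice reads scaled to gene counts came to 1904 ± 102 RPM in Hezuo livers and 2222 ± 305 RPM in Bama livers (SD, n = 3 each; exact two-sided permutation p = 0.2, the smallest possible being 0.1). Thinned to 38304 reads per library, 8431 ± 160 circRNAs were detected in Hezuo livers and 8789 ± 242 in Bama livers (SD, n = 3 each; exact two-sided permutation p = 0.2).

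The metallothionein locus on chromosome 6 held 3 of the 34 called circRNAs. novel_circ_012717, which lies antisense to MT1A (chr6:18661906-18667566, minus strand), had 71, 138 and 83 back-splice reads in Hezuo livers, against 0, 0 and 0 in Bama livers. With 3 reads over the whole Bama group as the floor it was at least 134-fold higher in Hezuo livers (log2 fold change 9.72 ± 0.65 SE, edgeR adjusted p = 3.89e-46). Where a group had no reads, the fitted log2 fold change depends on the prior count and is no bound. In the cold novel_circ_012717 had 86, 89 and 77 back-splice reads in Hezuo livers, against 0, 0 and 0 in Bama livers, so this loop was seen in all 6 Hezuo livers and in no Bama liver. novel_circ_012581 on the sense strand (chr6:18661543-18666593, plus strand) had 6, 2 and 13 back-splice reads in Hezuo livers, against 0, 0 and 0 in Bama livers (log2 fold change 5.92 ± 1.43 SE, edgeR adjusted p = 0.0111). Its call was lost without Hezuo replicate 3 (edgeR adjusted p = 0.282) or any of the Bama replicates (0.0765 to 0.119). novel_circ_001838, again antisense (chr6:18657197-18673289, minus strand), had 0, 0 and 0 back-splice reads in Hezuo livers, against 0, 26 and 0 in Bama livers (log2 fold change -6.02 ± 1.61 SE, edgeR adjusted p = 0.0428). All of its room temperature reads came from Bama replicate 2, and the call was lost without any of the Hezuo replicates (edgeR adjusted p from 0.227 to 0.244). MT1A itself was 2.27-fold higher in Hezuo livers. Reads that join neighbouring metallothionein copies cannot be told from back-splicing here. Coordinates are those of the deposited table; its genome build is not given in the sources used here.

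Other called circRNAs also had no read in Bama livers at room temperature. novel_circ_020070 from the glutathione transferase gene GSTA2 (chr7:46548359-46560801, minus strand) had 6, 13 and 17 back-splice reads in Hezuo livers, against 0, 0 and 0 in Bama livers, at least 16.6-fold higher (log2 fold change 6.71 ± 1.14 SE, edgeR adjusted p = 6.71e-06). novel_circ_017684 from CYP2C34 (chr14:106294756-106306036, plus strand) had 13, 10 and 11 back-splice reads in Hezuo livers, against 0, 0 and 0 in Bama livers, at least 15.6-fold higher (log2 fold change 6.61 ± 1.26 SE, edgeR adjusted p = 0.000117). Both were called in the cold with the same sign, and neither host gene was called at room temperature (host log2 fold changes of 0.54 and -0.00416). GSTA and CYP2C genes are close copies in clusters, so these junctions are uncertain in the same way. novel_circ_014467 from ACSS3, a propionyl-CoA synthetase gene (chr5:100357377-100357634, minus strand), had 5, 18 and 6 back-splice reads in Hezuo livers, against 0, 0 and 0 in Bama livers (log2 fold change 6.41 ± 1.46 SE, edgeR adjusted p = 0.00446). novel_circ_007205 from SPATA9 (chr2:102234626-102264179, minus strand) had 1, 13 and 4 back-splice reads in Hezuo livers, against 0, 0 and 0 in Bama livers (log2 fold change 5.74 ± 1.48 SE, edgeR adjusted p = 0.0292). Without Hezuo replicate 2, which held most of the reads of novel_circ_014467 and novel_circ_007205, neither was called (edgeR adjusted p = 0.285 and 0.635), and the calls were also lost without any of the Bama replicates (up to 0.0726 and 0.226). novel_circ_006710, from a host without a name (chr1:242983879-243035715, minus strand), had 13, 7 and 0 back-splice reads in Hezuo livers, against 0, 0 and 0 in Bama livers (log2 fold change 5.84 ± 1.58 SE, edgeR adjusted p = 0.0488). Its groups overlapped at 0, and the call was lost without any of the Bama replicates (edgeR adjusted p from 0.257 to 0.308).

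A called circRNA with many reads came from AASS, which encodes the first enzyme of lysine breakdown. novel_circ_012371 (chr18:24985702-25003037, plus strand) had 180, 96 and 124 back-splice reads in Hezuo livers, against 30, 53 and 51 in Bama livers (log2 fold change 1.93 ± 0.28 SE, edgeR adjusted p = 5.68e-09). AASS itself was at 209, 132 and 175 CPM in Hezuo livers, against 35.04, 138 and 48.1 CPM in Bama livers and was not called (log2 fold change 1.22 ± 0.46 SE, edgeR adjusted p = 0.176), and its circRNA was not called relative to the host (log2 ratio difference 0.44, limma adjusted p = 0.883). For the loop all 3 Hezuo livers exceeded all 3 Bama livers, while for the gene Bama replicate 2 lay within the Hezuo range. novel_circ_004317 from HIBADH of valine breakdown (chr18:44996263-45015134, plus strand) had 18, 20 and 38 back-splice reads in Hezuo livers, against 3, 7 and 5 in Bama livers (log2 fold change 2.68 ± 0.56 SE, edgeR adjusted p = 0.00110). It lost its call without Bama replicate 1 (edgeR adjusted p = 0.0509) or Hezuo replicate 3 (0.126). novel_circ_006160 from DISP1 (chr10:11654269-11654794, plus strand) had 6, 41 and 27 back-splice reads in Hezuo livers, against 4, 3 and 5 in Bama livers (log2 fold change 3.01 ± 0.65 SE, edgeR adjusted p = 0.00173), and lost its call without Hezuo replicate 2 (0.400).

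Bama livers carried circRNAs that were not found in Hezuo livers. novel_circ_005147, from a host without a name (chr7:20720396-20737650, minus strand), had 0, 0 and 0 back-splice reads in Hezuo livers, against 52, 14 and 64 in Bama livers, at least 31.4-fold lower in Hezuo livers (log2 fold change -8.09 ± 0.95 SE, edgeR adjusted p = 9.83e-14). novel_circ_015039, also from an unnamed host (chr7:115947803-115983170, minus strand), had 0, 0 and 0 back-splice reads in Hezuo livers, against 57, 25 and 35 in Bama livers, at least 28.3-fold lower in Hezuo livers (log2 fold change -7.99 ± 1.06 SE, edgeR adjusted p = 1.95e-10). In the cold Hezuo livers again had no read of either. novel_circ_022554 from C12orf29 (chr5:94479159-94482115, minus strand) had 5, 5 and 8 back-splice reads in Hezuo livers, against 47, 39 and 32 in Bama livers (log2 fold change -2.32 ± 0.51 SE, edgeR adjusted p = 0.00241). Every Hezuo liver had reads of it, but fewer than any Bama liver. novel_circ_024066 from PNISR, a splicing-related gene (chr1:66353976-66356192, minus strand), had 1, 1 and 0 back-splice reads in Hezuo livers, against 15, 19 and 20 in Bama livers (log2 fold change -4.16 ± 0.998 SE, edgeR adjusted p = 0.0105). novel_circ_006560 from complement C5 (chr1:261061492-261067829, minus strand) had 28, 43 and 30 back-splice reads in Hezuo livers, against 76, 106 and 115 in Bama livers (log2 fold change -1.17 ± 0.31 SE, edgeR adjusted p = 0.0386). novel_circ_020199, antisense to the matrix gene POSTN (chr11:13246347-13262673, plus strand), had 2, 3 and 5 back-splice reads in Hezuo livers, against 34, 7 and 41 in Bama livers (log2 fold change -2.54 ± 0.62 SE, edgeR adjusted p = 0.0137). novel_circ_022818 from RRP15 (chr10:8265577-8271193, plus strand) had 9, 18 and 16 back-splice reads in Hezuo livers, against 48, 34 and 106 in Bama livers (log2 fold change -1.66 ± 0.42 SE, edgeR adjusted p = 0.0191). In each of these 5 every Hezuo liver lay below every Bama liver. Of the 7 named here, novel_circ_005147, novel_circ_015039 and novel_circ_022554 stayed called whichever library was left out. PNISR's call ended without Bama replicate 2 or 3 or Hezuo replicate 3 (edgeR adjusted p = 0.0907, 0.0612 and 0.130), and that of C5 without Hezuo replicate 1 or 3 or Bama replicate 2 or 3 (0.164 to 0.357). POSTN's call ended without Hezuo replicate 1 or 2 or Bama replicate 1 or 3 (0.0635 to 0.314), and RRP15's without Hezuo replicate 1 or 3 or Bama replicate 3 (0.0646 to 0.709).

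**Figure D4:**
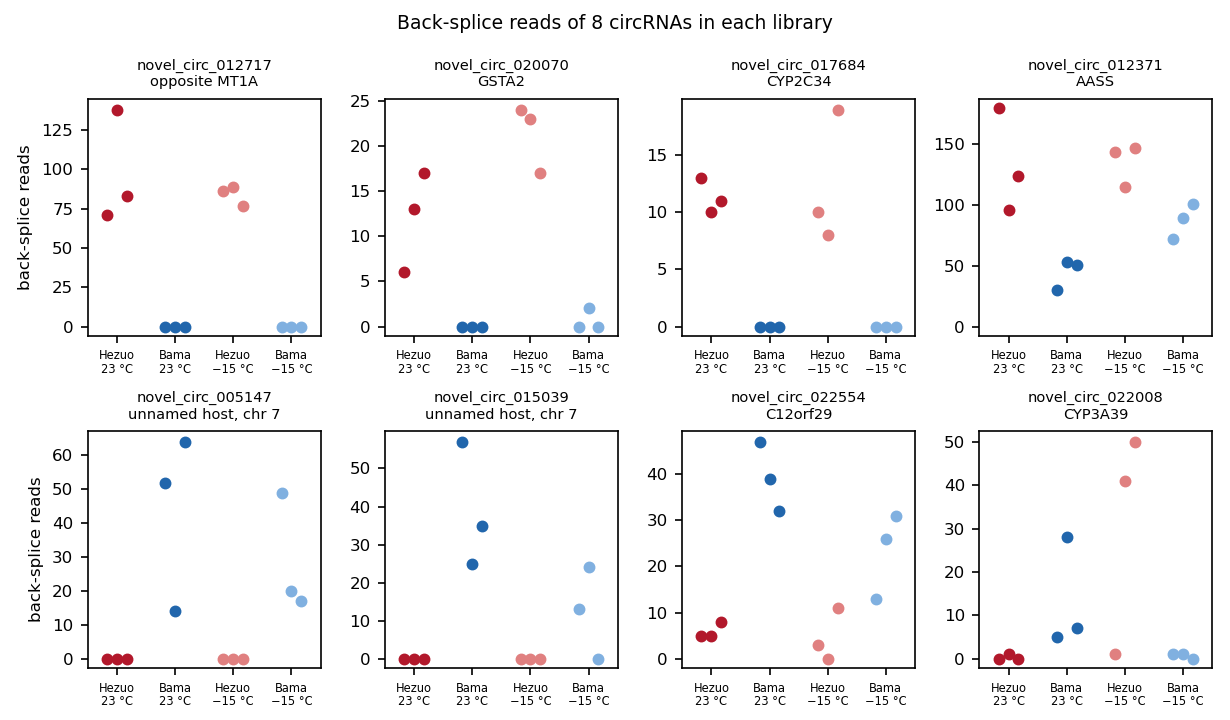
Back-splice reads of 8 called circRNAs in each of the 12 libraries, with Hezuo left of Bama at 23 °C and then at −15 °C; each point is 1 pig and axes are linear. The antisense circRNA at MT1A has 71 to 138 reads in Hezuo livers at 23 °C and 0 in all Bama livers, novel_circ_005147 and novel_circ_015039 have reads in Bama livers only, and the CYP3A39 circRNA is the higher one in Bama livers at 23 °C and in Hezuo replicates 2 and 3 at −15 °C.

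Few circRNA calls came with a call of the host gene. Of the 34 called, 26 had a tested host, 22 of them with the same sign as the host, beside 52.6% of all tested circRNAs, and 1 host was itself called. The median absolute log2 fold change was 3.58 for these circRNAs and 0.39 for their hosts. The ratio of a circRNA to its host was tested for 8533 circRNAs with limma, which called 19 (0.223%), 8 higher (0.0938%) and 11 lower (0.129%) in Hezuo livers, with 773 at an unadjusted p below 0.05. The ratio was lower for an ESR1 loop. This novel_circ_011555 (chr1:14456953-14476051, minus strand) had 2, 1 and 0 back-splice reads in Hezuo livers, against 7, 5 and 11 in Bama livers while the gene was 4.40-fold higher in Hezuo livers (log2 ratio difference -3.55 ± 0.57 SE, limma adjusted p = 7.57e-05). TFRC was the reverse case, with 7, 12 and 5 back-splice reads in Hezuo livers, against 9, 2 and 7 in Bama livers for novel_circ_008530 (chr13:133984022-133987630, plus strand) and less TFRC RNA in Hezuo livers (log2 ratio difference 2.28 ± 0.54 SE, limma adjusted p = 0.0303). These loops have few reads, and neither was itself called (edgeR adjusted p = 0.602 for the ESR1 loop and 0.930 for the TFRC loop). Of the 19 ratio calls, 6 were of circRNAs that were called themselves. The count of ratio calls ran from 8 to 17 over the fits without 1 library. It was 5 with a prior count of 0.5 and 4 among circRNAs with at least 50 reads in all. The ESR1 loop, with 38 reads in all, was not among the latter. Whether the ESR1 and TFRC ratios stayed called with the smaller prior count is not reported here. Among the 30 called genes that host tested circRNAs, 41 of 72 circRNAs had the sign of their host and 1 was called.

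The other called circRNAs were mostly from hosts that were not called. For novel_circ_012588 of ATP11A, a phospholipid flippase gene (chr11:78349882-78356609, plus strand), the counts were 12, 14 and 12 back-splice reads in Hezuo livers, against 43, 56 and 45 in Bama livers (log2 fold change -1.55 ± 0.42 SE, edgeR adjusted p = 0.0475). For novel_circ_002661 of WASF3, an actin regulator gene (chr11:4338231-4345913, plus strand), the counts were 11, 25 and 30 back-splice reads in Hezuo livers, against 7, 3 and 9 in Bama livers (log2 fold change 2.20 ± 0.55 SE, edgeR adjusted p = 0.0204). Both had the same direction and a call in the cold. The room temperature call of novel_circ_012588 was lost in each of the 6 fits without 1 library (edgeR adjusted p from 0.0595 to 0.445), and that of novel_circ_002661 in all but the fit without Hezuo replicate 1 (up to 0.319). Among intergenic circRNAs, novel_circ_009681 (chr1:106664464-106665739, minus strand) had 43, 34 and 8 back-splice reads in Hezuo livers, against 123, 93 and 155 in Bama livers (log2 fold change -1.72 ± 0.35 SE, edgeR adjusted p = 0.00129), with Hezuo replicate 3 the lowest and every Bama liver above every Hezuo liver. Without Hezuo replicate 3 it was not called (edgeR adjusted p = 0.0613).

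CYP3A39, a steroid- and drug-oxidising P450 gene in a cluster of close copies on chromosome 3, gave called circRNAs in both directions. novel_circ_012111 (chr3:6707771-6770048, plus strand) had 45, 15 and 41 back-splice reads in Hezuo livers, against 9, 13 and 5 in Bama livers (log2 fold change 2.22 ± 0.48 SE, edgeR adjusted p = 0.00155). novel_circ_022008 (chr3:6746550-6758714, plus strand) had 0, 1 and 0 back-splice reads in Hezuo livers, against 5, 28 and 7 in Bama livers (log2 fold change -4.60 ± 0.93 SE, edgeR adjusted p = 0.000610). In the cold the second one had 1, 41 and 50 back-splice reads in Hezuo livers, against 1, 1 and 0 in Bama livers, the opposite order, with Hezuo replicates 2 and 3 high and Hezuo replicate 1 as low as the Bama pigs. Without Bama replicate 2 its room temperature call was lost (edgeR adjusted p = 0.357). Without Bama replicate 3 or Hezuo replicate 1 or 3, novel_circ_012111 was not called (edgeR adjusted p = 0.120, 0.0801 and 0.0560). CYP3A39 itself was not called (host log2 fold change 0.33).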

How the data were processed

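Liver total RNA, depleted of ribosomal RNA and made into stranded libraries per the labels' protocols, was analysed from 12 pigs, 3 per breed and temperature. Reads were handled with fastp per the submitters' processing notes. For the alignment, the counting and the circRNA calls, tools and genome build were not stated in the sources used. The authors deposited estimated counts per gene, of which 9.479% of nonzero values were fractional, and these were rounded. They also deposited whole-number counts of back-splice reads per circRNA. FPKM values per gene and RPM values per circRNA, as deposited by the authors, entered no test.

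Chromosomes came from the circRNA table and from RefSeq (5495 genes from the table, 12031 by RefSeq ID and 318 by symbol), and 3325 rows without one were left out of the counts given. Genes were filtered with edgeR's filterByExpr (minimum count 10, total 15), circRNAs by at least 2 reads in 3 libraries and 10 in all. All 4 groups entered one TMM-scaled quasi-likelihood fit in edgeR 4.0.16 (R 4.3.3), with 8 residual degrees of freedom and Benjamini-Hochberg adjustment over all tested rows, sex chromosomes included. The ratio of circRNA to host was tested in limma 3.58.1 on log2 values with a prior count of 2, and DESeq2 1.42.0 was an alternative. CPM values are scaled by TMM library sizes. A host is the gene the deposited table names. The labels reuse the same pig numbers at both temperatures, and the samples were taken as separate pigs. No sequences are shown.

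Named genes were called ones with no overlap and at least 1 CPM in the higher group, the 10 largest increases, the 10 largest decreases and the 10 most abundant, up to 4 called genes per list, and, whatever their test, ALB, CIRBP, CPT1A, FGF21, CYP2E1, CYP1A2, CYP7A1, IGF1, HAMP and UCP2 (RBM3, also on that rule, is not autosomal). Named circRNAs were the 6 largest changes in each direction, the 4 with the most reads and hosts with 3 or more called. ARVCF, PRKCZ, GTF2H5, BCL11B, CD27, CD38, NLRC3, KIF20A, ALAD, FDX1, MCCC2, AGMAT, HGD, ASS1, IGFBP2, GATM, CXCL9, MKI67, AASS, IL33, REEP2, the neighbours of the threshold (PSMB6, DCXR, TFDP2, ATF7IP2 and GGTA1P) and the circRNAs outside that rule, were chosen after their values were seen. Some genes that the rule names are not reported here. The members and the gene lists were chosen with earlier results of these data known. The scripts were tested on simulated data. Counting intervals and floors cover counting error only.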

Additional observations from a re-analysis of the deposited data

Results flagged for a closer look

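The breed difference of 6 circRNAs was not the same at room temperature as in the cold, by edgeR's test of the difference between the 2 breed differences (6 of 8833 called, 0.0679%). The values below are the room temperature log2 fold change minus that in the cold. Every call here rests on 3 pigs per group, with Y-linked RNA absent from all 3 Bama pigs at room temperature and from 1 of 3 in the cold, and with the presence of Y-linked RNA in the model 1 circRNA was called.

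novel_circ_022008 of CYP3A39 differed by -9.96 ± 1.21 SE, edgeR adjusted p = 3.98e-12. novel_circ_021585 of CYP2C33 (chr14:111253510-111282469, minus strand) differed by -5.04 ± 1.21 SE, edgeR adjusted p = 0.0348. It had 0, 1 and 0 back-splice reads in Hezuo livers, against 24, 25 and 7 in Bama livers at room temperature, and 2, 10 and 14 back-splice reads in Hezuo livers, against 7, 21 and 0 in Bama livers in the cold. Both lie in clusters of close gene copies.

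The NDFIP2 gene, which encodes an adaptor of ubiquitin ligases, gave 2 of the 6, which share a start. For novel_circ_019821 (chr11:51531489-51540684, plus strand) the difference was 1.57 ± 0.33 SE, edgeR adjusted p = 0.00613. It had 150, 144 and 122 back-splice reads in Hezuo livers, against 92, 95 and 105 in Bama livers at room temperature, and 136, 145 and 199 back-splice reads in Hezuo livers, against 141, 286 and 408 in Bama livers in the cold. For novel_circ_008845 (chr11:51531489-51547197, plus strand) the difference was 2.32 ± 0.49 SE, edgeR adjusted p = 0.00613. It had 26, 30 and 22 back-splice reads in Hezuo livers, against 25, 34 and 21 in Bama livers at room temperature, and 31, 26 and 12 back-splice reads in Hezuo livers, against 59, 68 and 179 in Bama livers in the cold, where Bama livers were the higher ones.

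For novel_circ_018059 of SLC38A1, a glutamine transporter gene (chr5:77049090-77058522, minus strand), the difference was 2.80 ± 0.66 SE, edgeR adjusted p = 0.0339. It had 27, 15 and 12 back-splice reads in Hezuo livers, against 7, 6 and 13 in Bama livers at room temperature, and 7, 16 and 17 back-splice reads in Hezuo livers, against 42, 30 and 34 in Bama livers in the cold. For novel_circ_021015, from an unnamed host (chr17:5052491-5077828, minus strand), it was 5.26 ± 1.25 SE, edgeR adjusted p = 0.0339. It had 6, 9 and 13 back-splice reads in Hezuo livers, against 1, 2 and 0 in Bama livers at room temperature, and 1, 2 and 5 back-splice reads in Hezuo livers, against 9, 8 and 14 in Bama livers in the cold.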

How the results depend on the processing

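All 127 called genes, chosen from these same libraries, kept their direction in each of the 13 alternative fits. The number called was 112 in a fit of the 6 room temperature libraries alone, 126 with DESeq2 size factors, 109 without a filter, 952 with DESeq2, 3 with Y-linked RNA as a covariate, 6 at an adjusted p below 0.01, 82 with an absolute log2 fold change of at least 1, 9 with Bama reduced to replicate 2 (chosen after seeing the data; the spread of that 1 library is assumed to be that of the other groups), and 6 to 550 without 1 library. With the replicate block it was 29. Similar totals were not the same genes. Only 58 of the 112 called in the 6 room temperature libraries alone were among the 127. Of the 78 called without Hezuo replicate 2, 53 were among the 127. Pig numbers gave no pairing between breeds at room temperature (correlations of deviations 0.0074, -0.099 and 0.055, and 1 of 6 libraries correlated best with their own number). Within a breed, equal numbers at the 2 temperatures had correlations of -0.083, 0.079 and -0.014 in Hezuo pigs and 0.138, 0.148 and 0.022 in Bama pigs. Some genes that were not called changed sign: GATM to 0.29 and CYP2E1 to -0.14 with the Y-linked covariate, UCP2 to 0.36 and CIRBP to -0.36 with Bama reduced to replicate 2. CYP7A1 reached -0.82 with that covariate and -0.0192 with the block, and ranged from -0.304 to 0.537 without 1 library, while CIRBP ranged from -0.062 to 0.37. The breed comparison in the cold gave 1150 genes with DESeq2, 123 with the covariate and 63 (without Bama replicate 1) to 388 (without Bama replicate 3) with 1 library left out. The difference between temperatures gave 123 with DESeq2, none with the covariate and 0 to 22 without 1 library. The 34 circRNAs became 46 in a fit of the 6 room temperature libraries alone, 19 with DESeq2, 21 without a filter, 1 with the covariate, 19 at an adjusted p below 0.01, 10 with Bama reduced to replicate 2, and 20 to 27 without 1 library. Of those 46 circRNAs, 29 were among the 34. In the cold DESeq2 called 25. Between temperatures it called 2, the covariate fit 1, and leaving out 1 library 1 to 7. Ratios to the host gave 5 calls with a prior count of 0.5, 4 with at least 50 reads, none (0) with Bama reduced to replicate 2 and 8 to 17 without 1 library. The causes of these shifts were not tested, except that stricter thresholds call fewer by construction. With 3 pigs a group, single values could not reach p below 0.1.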
